A study of Rattus norvegicus with 10 samples.

Results

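The jejunum of 2 male Sprague Dawley rats given A-998679 at 200 mg/kg/day was compared with that of 3 rats given vehicle, out of 10 rats measured in all. A-998679 is an experimental modulator of nicotinic acetylcholine receptors that the study also found to activate the aryl hydrocarbon receptor (AhR). Dosing was oral, for 5 days. The vehicle was 0.2% hydroxypropylmethylcellulose (HPMC) at 10 ml/kg/day, and the labels name no genetic change in any rat. The other arrays came from 2 rats at 30 mg/kg/day and 3 rats at 100 mg/kg/day, and they entered the estimate of spread. Each rat gave 1 piece of whole gut wall and 1 Affymetrix RAE230 array, so that a smaller number of cells of a type and less RNA per cell cannot be told apart. Arrays were chosen by the dose and tissue in their titles. Of 29559 probe sets, the 17736 in the upper 60% of mean intensity were kept, and these named 10220 genes.

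The jejunal wall is lined by absorptive enterocytes, mucus-secreting goblet cells and Paneth cells, which lie on a stroma of fibroblasts and matrix and on layers of smooth muscle with their nerves. Secreted lectins of the Reg family are made by the epithelium. In mouse their genes respond to injury, to microbes and to interleukin-22, which acts through the transcription factor STAT3. Secretory cells fold large amounts of protein in the endoplasmic reticulum, and the unfolded protein response is the set of chaperone and degradation genes that rises when this folding is strained.

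All levels below are log2 intensities, and all differences are 200 mg/kg minus vehicle on the log2 scale unless another pair is named. Array medians lay between 5.864 and 5.905, and 11.0% to 11.3% of probe sets were blank on each array. The tissue label was checked on markers of absorptive jejunum. Fabp2, a fatty acid binding protein of enterocytes, lay between 12.40 and 12.55 in vehicle rats and at 12.27 and 12.87 in the 200 mg/kg rats. Vil1, the actin bundler villin of the brush border, lay between 11.71 and 11.98 in vehicle rats and at 11.89 and 12.10 at 200 mg/kg. Vehicle rat 1 stood apart from the other vehicle rats by its likeness to the 100 mg/kg rats. Over 17465 probe sets its correlation was 0.93 with vehicle rat 2 and 0.886 with vehicle rat 3. It reached 0.95 to 0.955 with the 100 mg/kg rats. Vehicle rat 3 was less like the 100 mg/kg rats, at 0.869 to 0.9, and correlated at 0.949 with vehicle rat 2. The 200 mg/kg rats correlated at 0.949 with each other and at 0.943 to 0.961 with the 100 mg/kg rats. Whether vehicle rat 1 was mixed up with another, or its piece came from another stretch of gut, was not tested. Every difference from vehicle rests in part on this rat. Results without it are given for the number called and for some genes and lists. Further genes given below as not passed did pass without it, among them Reg3g, Abhd3, Gmds, Hk1 and Lox (limma adjusted p = 0.0347 each).

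Between 200 mg/kg and vehicle, 4 of 17692 probe sets passed an adjusted p of 0.05 in limma with Benjamini-Hochberg adjustment, or 0.0226%. Of these, 2 rose (0.0113%) and 2 fell (0.0113%). Reg1a, a secreted lectin, rose about 10.1-fold, and an unnamed probe set rose beside it. Slc25a42, a mitochondrial carrier of coenzyme A, and Cyp26b1, an enzyme that breaks down retinoic acid, both fell. Before adjustment, 1013 probe sets lay higher (5.73%) and 1182 lower (6.68%) with a p within 0.05, where 885 in all are expected by chance. By gene these shares were 4.71% and 7.14%.

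The promoters of the 3 Reg genes that follow are shown because Reg1a passed the test and Reg3b and Reg3g lay far above vehicle with it. They are RefSeq sequences of assembly GRCr8, in windows of 300 bases that run across the annotated start of the gene, written 5′ to 3′ on the gene's strand. Capitals mark matches to TTCNNNGAA, a letter pattern of STAT binding sites that reads the same on both strands.
Reg1a (chr4:112450216-112450515, plus strand): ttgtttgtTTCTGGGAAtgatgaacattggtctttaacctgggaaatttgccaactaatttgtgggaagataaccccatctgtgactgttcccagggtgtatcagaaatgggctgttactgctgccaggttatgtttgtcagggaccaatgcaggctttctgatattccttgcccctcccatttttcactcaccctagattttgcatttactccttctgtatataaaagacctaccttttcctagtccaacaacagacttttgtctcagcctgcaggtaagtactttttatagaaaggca
Reg3b (chr4:112419526-112419825, plus strand): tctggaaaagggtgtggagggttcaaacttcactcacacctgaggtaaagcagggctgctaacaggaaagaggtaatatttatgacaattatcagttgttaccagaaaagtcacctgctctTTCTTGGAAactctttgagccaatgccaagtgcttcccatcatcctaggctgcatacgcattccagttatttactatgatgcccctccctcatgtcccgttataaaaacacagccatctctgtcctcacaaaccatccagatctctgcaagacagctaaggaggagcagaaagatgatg
Reg3g (chr4:112484689-112484988, minus strand): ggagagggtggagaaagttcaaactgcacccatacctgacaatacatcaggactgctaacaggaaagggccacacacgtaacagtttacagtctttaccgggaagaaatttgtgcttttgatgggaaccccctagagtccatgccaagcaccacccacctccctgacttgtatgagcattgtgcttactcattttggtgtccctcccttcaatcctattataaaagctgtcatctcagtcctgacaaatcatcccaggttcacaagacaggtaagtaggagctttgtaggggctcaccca
The 3 genes lie close together on chromosome 4. Reg1a held 1 match, which starts 242 bases before the start of the gene, and Reg3b held 1 match, which starts 129 bases before it. The Reg3g window held no match. Of 33469 promoter windows, 8.87% held the pattern, and a match is a run of letters and no measure of binding.

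Reg1a (1368629_at) had log2 intensities of 6.09, 6.26 and 6.52 in the vehicle rats and at 9.78 and 9.46 in the 200 mg/kg rats. The groups were far apart, and both 200 mg/kg rats also lay above the 100 mg/kg rats, at 7.89, 6.66 and 7.18, and above the 30 mg/kg rats, at 6.35 and 6.36. The mean rose from 6.29 ± 0.22 (SD, n = 3) to 9.62 ± 0.22 (SD, n = 2), a difference of 3.33 (SE 0.32, limma adjusted p = 0.0277).

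Reg3g (1370631_at), a bactericidal lectin of the epithelium in mouse, stood at 9.51, 8.35 and 8.33 in vehicle rats and at 12.51 and 12.87 at 200 mg/kg. Its difference of 3.96 (SE 0.54), or 15.6-fold, was larger than that of Reg1a but did not pass (limma adjusted p = 0.106). Its spread among vehicle rats was wider (SD 0.67, n = 3). Reg3g lay at 10.46, 9.27 and 9.28 for 100 mg/kg and at 8.48 and 9.91 for 30 mg/kg, all below both 200 mg/kg rats. Reg3b (1368238_at), a related lectin, stood at 11.53, 11.09 and 11.07 in vehicle rats and at 12.42 and 12.84 at 200 mg/kg. Its difference was 1.40 (SE 0.24, limma adjusted p = 0.162), again with both 200 mg/kg rats above every other rat.

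Slc25a42 (1388579_at) stood at 6.23, 6.58 and 5.89 in vehicle rats and at 4.22 and 3.90 at 200 mg/kg. The 100 mg/kg rats, at 6.41, 6.28 and 6.18, lay with the vehicle rats, and the 30 mg/kg rats, at 6.77 and 6.73, lay above them. It fell by 2.17 (SE 0.21, limma adjusted p = 0.0277), or 4.52-fold.

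Cyp26b1 (1384392_at) stood at 6.57, 6.27 and 6.53 in vehicle rats and at 4.31 and 4.84 at 200 mg/kg. The 30 mg/kg rats, at 5.66 and 5.42, and the 100 mg/kg rats, at 4.96, 5.27 and 5.33, lay in between, so that the 4 dose groups did not overlap and were lower at each higher dose. It fell by 1.88 (SE 0.20, limma adjusted p = 0.0436), or 3.68-fold. A second Cyp26b1 probe set was too dim to be tested, and it had values in all vehicle rats but in only 1 of the 200 mg/kg rats.

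The annotation gives no gene for 1393535_at, whose levels were 4.86, 4.69 and 5.04 in vehicle rats and 6.36 and 6.46 at 200 mg/kg. It rose by 1.54 (SE 0.17, limma adjusted p = 0.0436), and the other doses lay between 4.97 and 5.46. Whether the 4 calls held depended on single arrays. Without vehicle rat 1 all 4 were still called and the number called was 401, of which 169 were higher (0.956%) and 232 lower (1.31%). Without vehicle rat 2, without the 100 mg/kg rat 3 or without either 30 mg/kg rat, 0 were called by limma, while 1672 to 2051 had an unadjusted p within 0.05 and the methods' t-test called 0 after adjustment.

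**Figure D1:**
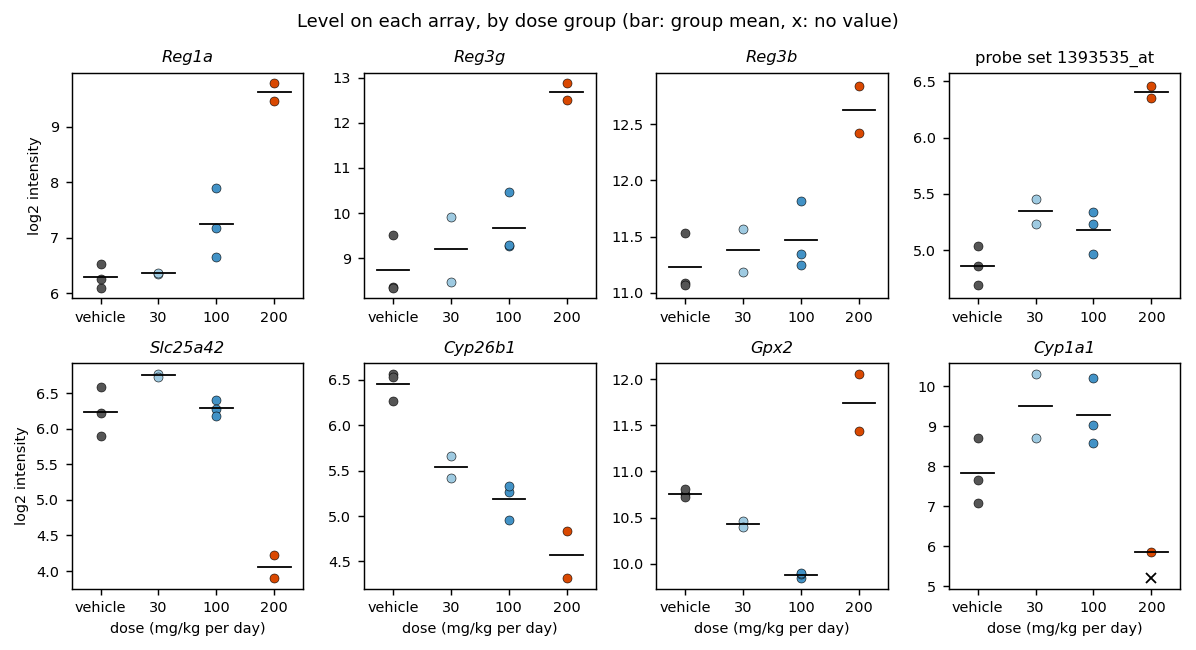
Log2 intensity on each array for 8 probe sets, by dose in mg/kg per day, with 1 point per rat, a bar at the group mean and a cross for a blank. Both 200 mg/kg rats lie above all other rats for Reg1a, Reg3g, Reg3b, 1393535_at and Gpx2 and below all others for Slc25a42 and Cyp26b1, and the 1 value of Cyp1a1 at 200 mg/kg, 5.86, is its lowest.

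Several further genes had both 200 mg/kg rats above all 3 vehicle rats and differences of more than 1 without passing the test. Among them, Abhd3, a phospholipase, stood at 7.89, 7.89 and 8.04 in vehicle rats and at 9.52 and 9.17 at 200 mg/kg (1.40, limma adjusted p = 0.0729). Gmds, the first enzyme of GDP-fucose synthesis, stood at 7.88, 7.62 and 7.57 in vehicle rats and at 9.27 and 8.86 at 200 mg/kg (1.38, limma adjusted p = 0.114). Cfi, the complement factor I protease, differed by 1.61, Samhd1, a nucleotide phosphohydrolase, by 1.51, the long noncoding RNA Miat by 1.41, the palmitoyltransferase Zdhhc22 by 1.25 and the protocadherin Pcdha12 by 1.12. The limma adjusted p of these 5 was 0.162.

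On the lower side, the kinase gene Dstyk lay at 5.43, 5.24 and 5.56 in vehicle rats and at 3.35 and 3.53 at 200 mg/kg (−1.97, limma adjusted p = 0.0579), while a second probe set of it differed by −0.31. Hk1, a hexokinase, lay at 7.24, 7.54 and 7.22 in vehicle rats and at 6.04 and 6.08 at 200 mg/kg (−1.28, limma adjusted p = 0.0876), while its second probe set differed by −0.33. The sorting nexin gene Snx33 differed by −1.59, the lysosomal membrane gene Tmem192 by −1.72 and the sodium channel subunit gene Scn3b by −1.21, with limma adjusted p from 0.0956 to 0.157. For Scn3b a second probe set differed by 0.14. At its first probe set the 30 mg/kg rats, at 4.66 and 4.89, overlapped the 200 mg/kg rats, at 4.88 and 4.25. RT1-Bb, a class II histocompatibility chain, differed by −5.86 at 1371033_at (limma adjusted p = 0.162), but its other probe set, 1371065_at, differed by 1.77, so the pair disagreed in direction.

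**Figure D2:**
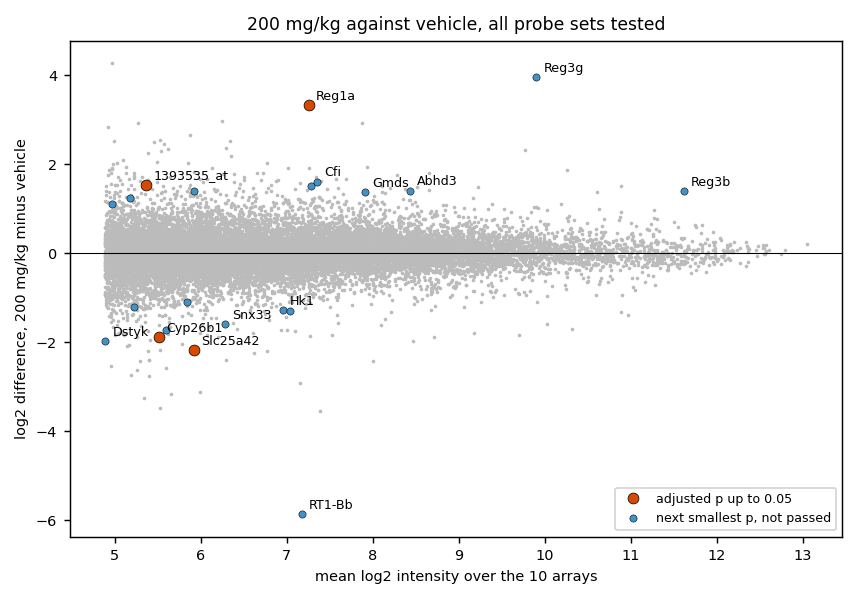
Log2 difference, 200 mg/kg minus vehicle, of each tested probe set against its mean log2 intensity over the 10 arrays. The 4 probe sets called are Reg1a and 1393535_at above 0 and Slc25a42 and Cyp26b1 below 0, and the genes of next smallest p that did not pass include Reg3g at 3.96 and RT1-Bb at −5.86.

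The study measured the jejunum for Cyp1a1, the AhR-driven enzyme it linked to the clearance of the compound. Cyp1a1 (1370269_at) stood at 7.09, 7.66 and 8.71 in vehicle rats, at 5.86 in the first 200 mg/kg rat and was blank in the second. The 1 value lay below every vehicle rat. It also lay below the 30 mg/kg rats, at 10.31 and 8.71, and the 100 mg/kg rats, at 9.02, 10.21 and 8.57. The difference of −1.96 (SE 0.85) did not pass (limma adjusted p = 0.409), also with the blank at a floor of 3.18 (−3.30, limma adjusted p = 0.228).

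Other genes of the AhR pathway did not share 1 direction. Cyp1b1, a related enzyme, stood at 7.56, 7.73 and 7.94 in vehicle rats and at 7.10 and 6.93 at 200 mg/kg, a difference of −0.73 (limma adjusted p = 0.194) without overlap. Ahrr, the AhR repressor, differed by −0.68 with overlap. Tiparp, an AhR target that restrains the receptor, differed by 0.28 and 0.53 at its 2 probe sets, the quinone reductase Nqo1 by 0.34 and Ahr itself by 0.53, and none of them passed. Ahr was blank in vehicle rat 3, and with that blank at the floor its difference was 1.05. Cyp1a2 was too dim to be tested.

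Of the transporters named beside the AhR genes, Abcc3, an organic anion exporter, stood at 6.70, 5.45 and 3.94 in vehicle rats and at 7.34 and 7.24 at 200 mg/kg (1.93, limma adjusted p = 0.305). It passed without vehicle rat 1 (limma adjusted p = 0.0423). Abcc2, an exporter of the apical membrane, had levels of 7.41 and 9.48 at 200 mg/kg and of 8.15, 7.41 and 7.85 in vehicle rats. The first 200 mg/kg rat lay level with the lowest vehicle rat and the second above all of them. The sign of the difference followed the choice of rat. The 100 mg/kg rats, at 9.24, 8.83 and 9.26, lay above every vehicle rat. The paper states, with data not shown, that the compound raised Mrp2, the product of Abcc2, in small intestine, and names no dose.

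Gene lists were described by how many members lay apart between the groups, meaning that both 200 mg/kg rats lay beyond all 3 vehicle rats on the same side. Over all 10220 genes, each by its brightest probe set, 11.4% were apart above and 14.5% apart below, 47% had a difference above 0 and 52.8% below 0, and the median difference was −0.021. Of the genes of these lists, Reg1a and Cyp26b1 were the only ones that passed the test, so the other members named below did not pass and are given by value. Lists held few genes, members are not independent of each other, and no test was made of a list.

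The unfolded protein response list lay higher at 200 mg/kg and close to vehicle at 100 mg/kg. All 25 of its measured genes were bright enough to be tested, and 22 lay above vehicle, 15 of them apart above and 0 apart below. Their median difference was 0.36, against 0.02 for the difference of 100 mg/kg from the same vehicle rats. Without vehicle rat 1 the median was 0.38. Against the 100 mg/kg rats, 17 of the 25 genes had both 200 mg/kg rats above all 3, where 15% of all genes did.

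The members with the smallest p act in protein import and folding in the endoplasmic reticulum. Hyou1, a large chaperone, stood at 8.25, 8.18 and 8.24 in vehicle rats and at 8.77 and 8.75 at 200 mg/kg, a difference of 0.54 (SE 0.12, limma adjusted p = 0.197). Its second probe set differed by 1.72 (SE 0.70), with vehicle rats spread over 6.29, 5.09 and 3.30. There the 100 mg/kg rats, at 6.25, 5.95 and 6.53, overlapped the 200 mg/kg rats, at 6.38 and 6.85. Sdf2l1, a partner of the chaperone BiP, stood at 8.01, 8.11 and 8.25 in vehicle rats and at 8.80 and 8.86 at 200 mg/kg, a difference of 0.71 (SE 0.18, limma adjusted p = 0.228). Sdf2l1 and the first probe set of Hyou1 lay between 7.76 and 8.29 in every rat of the lower doses. For Sdf2l1 both ends of this range came from the 30 mg/kg rats. Dnajc3, another BiP partner, differed by 0.46 and Sec61b, a subunit of the translocation channel, by 0.47.

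Hspa5, which encodes BiP itself, stood at 10.85, 11.00 and 11.15 in vehicle rats and at 11.24 and 11.36 at 200 mg/kg, a smaller difference of 0.30. The chaperone Hsp90b1 differed by 0.35, the lectin chaperones Calr and Canx by 0.31 and 0.29, and the disulfide isomerase Pdia3 by 0.74. The transcription factor genes of the same response did not lie apart. Xbp1 differed by 0.02, Atf6 by 0.04 and Ddit3, a gene of the later death-promoting branch, by −0.14.

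**Figure D3:**
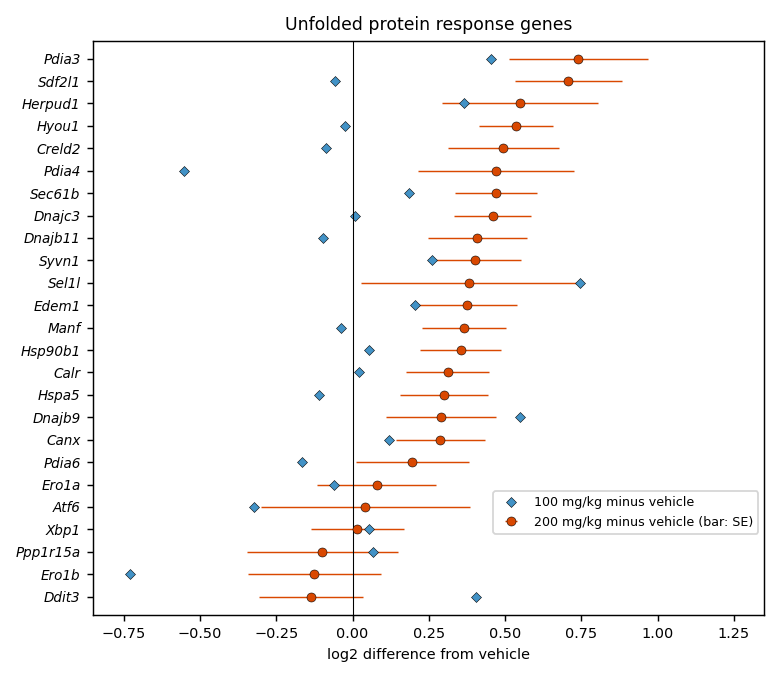
Log2 difference from vehicle of the 25 unfolded protein response genes, with circles for 200 mg/kg (bar, SE from limma) and diamonds for 100 mg/kg, which shares the vehicle rats. Most circles lie to the right of 0, 22 of 25, with Pdia3 and Sdf2l1 at 0.74 and 0.71.

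Promoters of 4 of these genes are printed because they carry the endoplasmic reticulum stress element, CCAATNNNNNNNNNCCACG, which was searched on both strands. Its end reads CGTGG on the reverse strand and so shares CGTG with GCGTG, the core of AhR response elements. That core occurs in 29.7% of all promoter windows, and a link of these genes to AhR was not tested. Capitals mark matches to the endoplasmic reticulum stress element, on the reverse strand in Creld2 and in 1 of the matches of Hsp90b1. Assembly and window are as for the Reg genes.
Hspa5 (chr3:38452766-38453065, plus strand): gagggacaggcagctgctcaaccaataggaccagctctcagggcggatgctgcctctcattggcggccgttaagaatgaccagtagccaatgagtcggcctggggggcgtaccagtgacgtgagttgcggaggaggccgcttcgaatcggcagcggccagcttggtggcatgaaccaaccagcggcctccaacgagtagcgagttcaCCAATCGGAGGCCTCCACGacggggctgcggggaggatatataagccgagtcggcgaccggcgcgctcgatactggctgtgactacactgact
Hsp90b1 (chr7:23012244-23012543, minus strand): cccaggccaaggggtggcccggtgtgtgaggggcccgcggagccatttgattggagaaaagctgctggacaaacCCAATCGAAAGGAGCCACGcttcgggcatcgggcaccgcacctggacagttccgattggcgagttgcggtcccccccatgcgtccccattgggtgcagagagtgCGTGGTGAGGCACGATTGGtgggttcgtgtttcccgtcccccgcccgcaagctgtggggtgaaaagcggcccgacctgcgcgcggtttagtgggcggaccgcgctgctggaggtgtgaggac
Dnajc3 (chr15:102432417-102432716, plus strand): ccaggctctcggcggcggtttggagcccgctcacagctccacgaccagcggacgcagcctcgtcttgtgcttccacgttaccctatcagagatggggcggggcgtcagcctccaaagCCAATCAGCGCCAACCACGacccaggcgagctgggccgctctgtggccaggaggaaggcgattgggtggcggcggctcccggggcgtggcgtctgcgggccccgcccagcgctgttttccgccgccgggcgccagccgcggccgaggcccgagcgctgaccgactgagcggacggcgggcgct
Creld2 (chr7:121789134-121789433, plus strand): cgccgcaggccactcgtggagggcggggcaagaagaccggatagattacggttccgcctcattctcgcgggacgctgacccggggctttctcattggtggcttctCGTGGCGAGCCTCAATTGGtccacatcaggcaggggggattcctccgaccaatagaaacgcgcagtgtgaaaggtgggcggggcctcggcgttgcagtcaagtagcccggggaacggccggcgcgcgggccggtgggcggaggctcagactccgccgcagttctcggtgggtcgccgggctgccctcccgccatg
A promoter window was found for 20 of the 25 genes, and 8 of them held the element. Over all 27457 genes with a window, 21 genes did (0.0765%). Besides the 4 genes shown, these were Calr, Canx, Ero1b and Xbp1. Of the 8 genes, 6 lay apart above vehicle, while Ero1b, an oxidase, differed by −0.12 and Xbp1 by 0.02. Of the 12 genes with a window and no match, 7 lay apart above. The median difference was 0.31 for the 8 genes with the element and 0.41 for these 12. Genes with the element thus did not have the larger differences.

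The list of amino acid stress genes, targets of the transcription factor ATF4, lay less clearly higher. Of 24 genes tested, 16 lay above vehicle and 7 apart above, with 1 apart below, and the median was 0.21 (0.13 without vehicle rat 2). Asns, asparagine synthetase, stood at 5.78, 5.54 and 5.75 in vehicle rats and at 7.17 and 6.46 at 200 mg/kg (1.12, limma adjusted p = 0.177). It lay between 5.54 and 5.93 in every rat of the lower doses. Of the 15 heat shock genes 12 lay below vehicle, with 3 apart below. The small heat shock gene Hspb1 was among these, at 7.89, 8.11 and 8.57 in vehicle rats and 7.33 and 6.94 at 200 mg/kg.

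Goblet cell genes lay above vehicle. All 14 that were tested, of 15 measured, had a difference above 0, with 7 apart above, and the median was 0.45. The same 14 genes had a median of 0.35 at 100 mg/kg. The widest gap was in Spink4, a secreted inhibitor-like peptide of goblet cells, which stood at 7.60, 8.91 and 8.80 in vehicle rats and at 10.60 and 9.90 at 200 mg/kg (1.81, SE 0.45, limma adjusted p = 0.228). In the 100 mg/kg rats Spink4 lay at 8.81, 8.02 and 8.32, within the vehicle range, so it separated the top dose from the next.

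Spdef, the transcription factor of secretory cell maturation, also lay higher at the top dose only, at 7.23, 7.12 and 7.07 in vehicle rats, 7.10, 7.04 and 6.98 at 100 mg/kg and 7.73 and 7.51 at 200 mg/kg. Tff3, the trefoil peptide, and Zg16, a mucus lectin, differed by 0.63 and 0.71 at 200 mg/kg and by 0.48 and 0.77 at 100 mg/kg, which is about as much. Muc2, the gel-forming mucin, differed by 0.35 at both doses.

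The list of Paneth cell and antimicrobial genes held the Reg genes. Of 9 tested genes, 6 lay above vehicle, 4 apart above and 1 apart below. Besides the 3 Reg genes, Nupr1, a stress-induced nuclear protein, lay apart above with a difference of 0.23, and Ang, an angiogenin ribonuclease, differed by 0.56 with overlap. Lyz2, a lysozyme, lay at 11.78, 11.87 and 11.91 in vehicle rats and at 11.50 and 11.64 at 200 mg/kg. Defa24, a Paneth cell defensin, differed by −0.20, and the phospholipase gene Pla2g2a by −0.18. Mmp7, the protease that processes defensins in mouse, had levels of 8.41 and 6.19 at 200 mg/kg, on both sides of the vehicle mean of 6.45 (difference 0.85). The list's median of 0.56 was 0.21 without vehicle rat 2, 0.15 without 200 mg/kg rat 1 and 0.92 without vehicle rat 1.

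Digestive enzymes and transporters of the brush border differed between the 200 mg/kg rats. Of 30 genes 24 lay above vehicle and 4 apart above, with 0 apart below, and the median of 0.28 was 0.02 without 200 mg/kg rat 2, 0.48 without 200 mg/kg rat 1, 0.09 without vehicle rat 3 and 0.45 without vehicle rat 1. Slc9a3, the sodium and proton exchanger, stood at 9.55, 8.87 and 8.37 in vehicle rats and at 9.93 and 9.94 at 200 mg/kg. Mep1b, a meprin protease, stood at 10.88, 10.22 and 10.14 in vehicle rats and at 11.26 and 11.45 at 200 mg/kg. Alpi, the alkaline phosphatase of the brush border, stood at 10.41 in 1 of the 200 mg/kg rats and at 12.15 in the other.

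Transcripts of the gut stroma lay below vehicle. On the list of fibroblast and extracellular matrix genes, which also holds interstitial cells of Cajal, 44 of 47 tested genes lay below and 32 lay apart below, with 0 apart above, against 14.5% apart below among all genes. The median difference was −0.62, and −0.28 at 100 mg/kg against the same vehicle rats. Of the 47 genes, 34 had both 200 mg/kg rats below all 3 of the 100 mg/kg rats, where 13.7% of all genes did. Without vehicle rat 1 the median was −0.82 and 16 of the 47 genes passed the test as lower, against 1.42% of all genes (0.677% passed as higher). Vehicle rat 1 had the lowest mean of the vehicle rats on this list, −0.25 against 0.06 and 0.19, so leaving it out widens the difference. Without vehicle rat 2 or vehicle rat 3, only 0 and 2 of all probe sets were called.

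Mfap4, a microfibril glycoprotein, stood at 7.30, 7.55 and 7.18 in vehicle rats and at 6.15 and 5.94 at 200 mg/kg, a difference of −1.30 (SE 0.19, limma adjusted p = 0.121). Lox, which crosslinks collagen and elastin, stood at 5.99, 6.30 and 6.21 in vehicle rats and at 5.07 in both 200 mg/kg rats, a difference of −1.10 (SE 0.16, limma adjusted p = 0.120), and its second probe set by −0.95 with overlap. In the 100 mg/kg rats these genes lay between 6.82 and 7.30 and between 5.64 and 5.91, above both 200 mg/kg rats.

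The collagens of the interstitium were lower in level as well. Col1a1 stood at 9.57, 10.49 and 10.70 in vehicle rats and at 9.15 and 9.16 at 200 mg/kg, and Col3a1 at 10.96, 11.41 and 11.59 and at 10.46 and 10.53. In both the lowest vehicle rat was rat 1, and the groups did not overlap. The proteoglycan genes Bgn and Dcn differed by −1.86 and −0.86, the laminin gene Lamb2 by −1.27, the growth factor binding gene Igfbp5 by −1.21 (its 3 other probe sets by 0.098, −0.32 and −0.82, with overlap) and fibronectin, Fn1, by −0.93. The receptor gene Pdgfra differed by −0.01, elastin, Eln, by −0.05 and the protease inhibitor gene Timp1 by 0.26, so a shift did not run through the whole list.

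**Figure D4:**
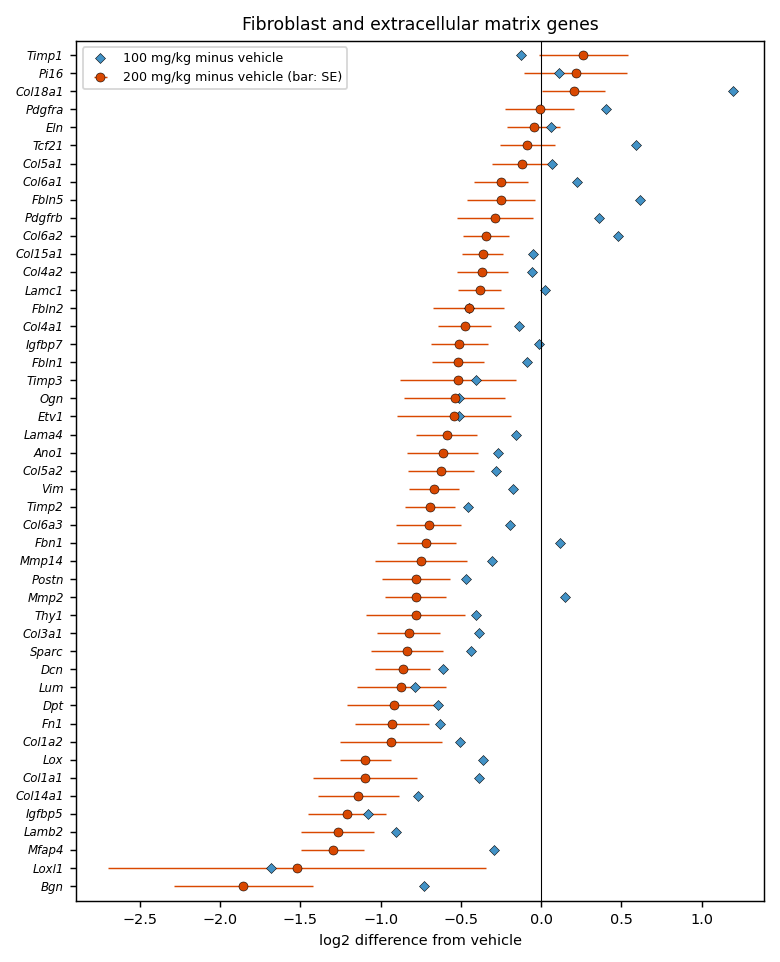
Log2 difference from vehicle of the 47 tested fibroblast and extracellular matrix genes, with circles for 200 mg/kg (bar, SE from limma) and diamonds for 100 mg/kg, which shares the vehicle rats. Of the circles, 44 lie to the left of 0, and the diamonds have a median of −0.28 against −0.62 for the circles.

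Smooth muscle and nerve transcripts were lower in level at both higher doses. Of 29 smooth muscle genes 28 lay below vehicle and 18 apart below, with 1 apart above, and the median was −0.65, against −0.87 at 100 mg/kg. Without vehicle rat 1 the median was −0.86, and 9 of the 29 genes passed as lower, against 1.42% of all genes. Here too vehicle rat 1 had the lowest mean of the vehicle rats, −0.37 against 0.17 and 0.20, so leaving it out widens the difference. Lmod1, an actin nucleator of smooth muscle, stood at 7.77, 8.57 and 8.78 in vehicle rats, 7.09, 6.92 and 6.77 at 100 mg/kg and 7.23 and 7.21 at 200 mg/kg. The contractile myosin gene Myh11 differed by −0.64 at 200 mg/kg, the actin crosslinker gene Flna by −0.94 and the caldesmon gene Cald1 by −0.96 (its second probe set by −0.35, with overlap). All 22 tested genes of enteric neurons and glia lay below vehicle, 10 of them apart, with a median of −0.51 at 200 mg/kg and −0.72 at 100 mg/kg. Snap25, of the synaptic vesicle fusion machinery, stood at 5.88, 6.84 and 7.08 in vehicle rats and at 5.27 and 5.43 at 200 mg/kg.

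The mean over list members, taken as the difference from the vehicle mean, gives 1 value per array. For smooth muscle it was −0.37 in vehicle rat 1 against 0.17 and 0.20 in the other vehicle rats, −0.49 and −0.74 at 200 mg/kg and −0.72 to −0.82 at 100 mg/kg. For the fibroblast and matrix list it was −0.25, 0.06 and 0.19 in vehicle rats, −0.67 and −0.56 at 200 mg/kg and −0.15 to −0.23 at 100 mg/kg. Vehicle rat 1 thus lay close to the 100 mg/kg rats in the matrix list and between the groups in the muscle list. In the matrix list the 200 mg/kg rats lay below every vehicle rat, while the 100 mg/kg rats lay within the vehicle range. In the muscle list the rats of both doses lay below every vehicle rat. No test was made of these values. The part of muscle and stroma genes in the differences of the goblet cell, unfolded protein response and Reg genes was not tested.

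**Figure D5:**
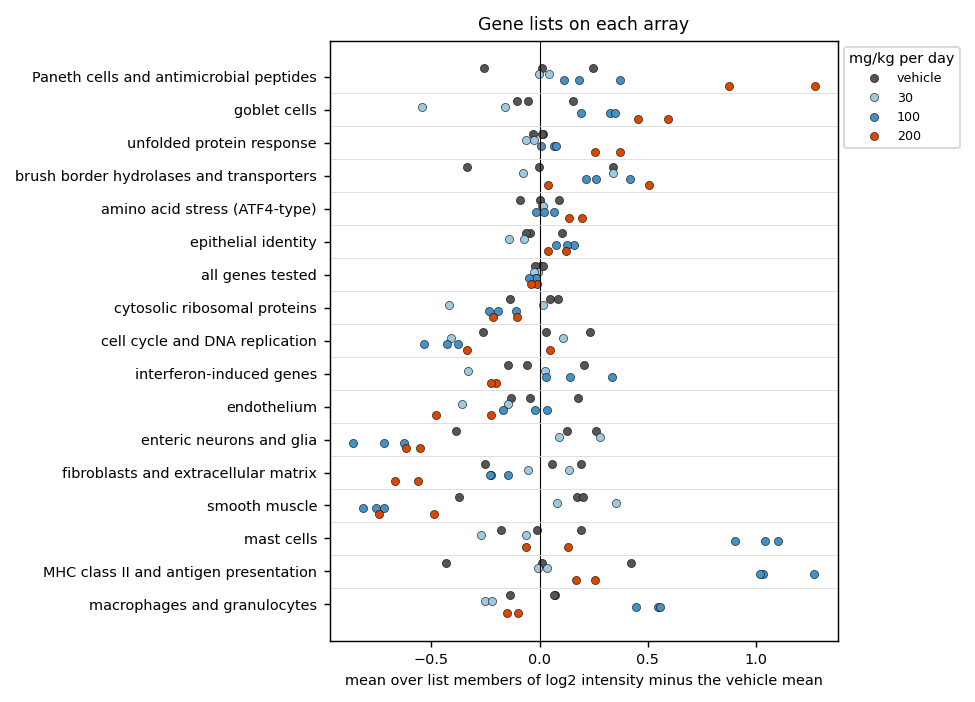
Mean over the members of a gene list of the log2 intensity minus the vehicle mean, with 1 point per array and colour by dose. In the fibroblast and matrix list the 200 mg/kg rats, at −0.67 and −0.56, lie below all others, and in the unfolded protein response list, at 0.26 and 0.37, above all others.

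Other cells of the wall and of blood gave the following counts. Of 18 endothelial genes 15 lay below vehicle and 7 apart below. Their median of −0.27 was −0.14 without 200 mg/kg rat 1 and −0.43 without 200 mg/kg rat 2. Cldn5, of endothelial tight junctions, stood at 5.25, 5.61 and 6.21 in vehicle rats and at 4.05 and 4.74 at 200 mg/kg. Of 4 red blood cell genes 3 lay apart below, with a median of −1.33 (−0.75 without 200 mg/kg rat 1), and of 15 adipose genes 9 lay apart below. Only 3 of 19 measured genes of the exocrine pancreas were bright enough to be tested. All 30 tested ribosomal protein genes lay below vehicle, 9 of them apart, with a median of −0.16 (−0.10 without 200 mg/kg rat 2).

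Among 32 interferon-induced genes, 7 lay apart below and 2 apart above, and the median was −0.04 (−0.14 to 0.09 when 1 array was left out). Ifit1, which binds viral RNA, had the widest gap, at 8.52, 7.68 and 8.35 in vehicle rats and 4.77 and 4.52 at 200 mg/kg (−3.54, SE 0.67, limma adjusted p = 0.174). The 100 mg/kg rats lay at 6.53, 9.12 and 8.73, so that single rats differed widely there. Ifit2, a related gene, stood at 5.10, 5.35 and 5.54 in vehicle rats and at 4.63 and 4.45 at 200 mg/kg.

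The retinoid genes beside Cyp26b1 had no common direction, with 4 of 19 apart above and 2 apart below. Rdh11, a retinal reductase, stood at 6.90, 6.82 and 6.74 in vehicle rats and at 7.58 and 7.45 at 200 mg/kg, a difference of 0.69 (limma adjusted p = 0.162). Dhrs3, another retinal reductase, stood at 8.20, 8.40 and 8.60 in vehicle rats and at 7.59 and 7.74 at 200 mg/kg, a difference of −0.73 (limma adjusted p = 0.200). Among 30 genes of glutathione and oxidant defence, 6 lay apart above and 5 apart below. Srxn1, which repairs oxidised peroxiredoxins, differed by 1.28 at 200 mg/kg and by 1.25 at 100 mg/kg.

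The top dose was also compared with 100 mg/kg, in the same fit, where the vehicle and 30 mg/kg rats enter the spread but not the difference. Of 17691 probe sets 4 passed (0.0226%), 2 higher (0.0113%) and 2 lower (0.0113%) at 200 mg/kg. Before adjustment, 2.71% lay higher and 3.35% lower with a p within 0.05. A fit on the groups compared alone called 0, with 1566 at an unadjusted p within 0.05. Gpx2, the glutathione peroxidase of the gut epithelium, stood at 9.84, 9.89 and 9.90 at 100 mg/kg and at 12.06 and 11.43 at 200 mg/kg. It was higher at 200 mg/kg by 1.87 (SE 0.18, limma adjusted p = 0.0149). The vehicle rats, at 10.75, 10.72 and 10.80, lay between, so that the middle dose lay below vehicle and the top dose above it. Against vehicle the difference was 0.99 (limma adjusted p = 0.162).

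Slc25a42 had a difference from 100 mg/kg of −2.23 (SE 0.21, limma adjusted p = 0.0149). Mpeg1 (1389006_at), a pore-forming protein of macrophages, stood at 9.41, 9.66 and 9.43 at 100 mg/kg and at 7.38 and 7.76 at 200 mg/kg, lower by 1.93 (SE 0.18, limma adjusted p = 0.0149). The vehicle rats lay at 7.83, 7.53 and 7.78, so the top dose was close to their level. The probe set 1378966_at, without a gene name, had 6.69 and 6.43 at 200 mg/kg against 2.25, 2.32 and 1 blank at 100 mg/kg. The fitted difference was 4.27 (SE 0.23, limma adjusted p = 0.00218), but the 100 mg/kg values lie below the floor of 3.18, so its size is uncertain. It was 3.38 with low values at the floor and 2.40 on the log2(value + 16) scale, and passed in both. Its vehicle rats stood at 5.35, 5.25 and 5.90.

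Immune cell lists other than class I antigen presentation lay lower than at 100 mg/kg as well. The median difference from 100 mg/kg was 0.05 for 12 class I genes, −0.43 for 11 B and plasma cell genes and −0.29 for 15 T and NK cell genes. In these, 0, 2 and 7 genes had both 200 mg/kg rats below all 100 mg/kg rats. Of 6 mast cell genes 6 had both 200 mg/kg rats below all 100 mg/kg rats, as did 7 of 9 class II antigen presentation genes and 9 of 13 macrophage and granulocyte genes, where 13.7% of all genes did. Against the vehicle rats that both doses share, the medians of these lists were 0.10, −0.05 and −0.11 at 200 mg/kg and 0.89, 0.81 and 0.59 at 100 mg/kg. The 200 mg/kg medians, near 0, changed sign with single arrays in the mast cell and class II lists and lay, over the 3 lists, between −0.25 and 0.16 when 1 array was left out. Of 51 genes of the cell cycle and DNA replication 37 lay below vehicle at 200 mg/kg, with a median of −0.16 there and −0.42 at 100 mg/kg. Only 2 of the 51 lay apart below, under the 14.5% of all genes, and the median was 0.02 without 200 mg/kg rat 2, −0.34 without 200 mg/kg rat 1, −0.28 without vehicle rat 1 and −0.086 without vehicle rat 3.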

How the data were processed

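RNA of jejunum from 10 rats was labelled with biotin and hybridised, 1 rat per array, and the authors analysed the scans in Rosetta Resolver 7.2. The deposited table holds log10 intensities (−4.34 to 4.02), whose background correction and scaling were done there and are not given in the sources used here. A second deposited table, with the fold change that the authors gave each dosed rat over vehicle, was not used. Values were turned to log2 and blanks left missing. The lowest 40% of probe sets by mean over all arrays were left out (11823, lowest mean kept 4.89). A model with 1 mean per dose was fitted to all 10 arrays in limma 3.58.1 (R 4.3.3, prior SD 0.223, prior degrees of freedom 2.69), two-sided, with calls at an adjusted p within 0.05. Tables and plots used Python 3.11.15, pandas 2.3.3 and matplotlib 3.10.9. Platform annotation gave 19952 probe sets 1 gene, 428 several and 9179 none, and no gene was named from several. On simulated data (17465 probe sets), 39 of 50 changes of 2 on the log2 scale, 17 of 50 changes of 1 and 8 unchanged probe sets were called for 200 mg/kg against vehicle.

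The arrays compared and the 46 gene lists, of 1366 entries with 1126 measured, were chosen with earlier results of these data known. Named were the AhR genes and Abcc2 and Abcc3, called genes, the 10 genes of smallest p per direction that lay apart by at least 1, and up to 4 members of smallest p per list. Other list members, and the 2 unnamed probe sets, were named after their values were seen. A list used the brightest probe set of each gene, and its value per array used members measured on all arrays. Alternatives were the groups compared alone, no filter, a filter of 60%, quantile normalization, a floor (10th percentile, 3.18), a pseudocount of 16, array weights, a trended robust prior, the replicate block, the methods' t-test and leaving out each array. An array has no depth, and the number of arrays limits precision. Each array was another rat, and no batch was given.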

Additional observations from a re-analysis of the deposited data

Results flagged for a closer look

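Between 200 and 100 mg/kg, 4 probe sets differed by a direct limma test, so their differences from vehicle are not the same at the 2 doses. Gpx2 differed by 1.87, with 0.99 from vehicle at 200 mg/kg and −0.88 at 100 mg/kg. The probe set 1378966_at differed by 4.27, where the 100 mg/kg group rests on 2 values below the floor, and by 2.40 on the log2(value + 16) scale. Slc25a42 differed by −2.23 and Mpeg1 by −1.93. Over 19 or 20 alternatives, 1378966_at passed in 15, Mpeg1 in 12, Gpx2 in 11 and Slc25a42 in 10. Causes were not tested.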

How the results depend on the processing

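The number called between 200 mg/kg and vehicle, 4, was 1 with only the groups compared, 1 with no filter, 1 with the lowest 60% left out, 2 with quantile normalization and 558 with array weights (249 higher, 309 lower). The weight of vehicle rat 2 was 8.343, against 0.274 and 0.412 for vehicle rats 1 and 3. The vehicle mean in that setting therefore rested mostly on 1 rat. Leaving out 1 array gave 0 to 401: 401 without vehicle rat 1, 15 without 200 mg/kg rat 2, 7 without 100 mg/kg rat 1, 2 without vehicle rat 3 and 1 each without 100 mg/kg rat 2 and 200 mg/kg rat 1. Between 200 and 100 mg/kg, 4 became 0 with only the groups compared (limma, 1566 with an unadjusted p within 0.05), 8 with no filter, 8 with the lowest 60% left out, 9 with a pseudocount of 16, 8 with array weights and 0 to 15 when 1 array was left out. It was 15 without 200 mg/kg rat 2, 9 without 100 mg/kg rat 1, 7 without vehicle rat 3, 1 each without 100 mg/kg rat 3 and the 30 mg/kg rats, and 0 without 100 mg/kg rat 2 or 200 mg/kg rat 1 (limma, 901 and 1018 with an unadjusted p within 0.05). The methods' t-test, which the methods name in general while the authors' array calls came from the Rosetta error model, called 1138 and 1496 at their unadjusted threshold and 0 and 0 after Benjamini-Hochberg adjustment. The numbers of the rats mark different animals, and deviations of same-numbered vehicle and 200 mg/kg rats correlated at −0.184 and −0.003. With the replicate block limma called 0 between 200 mg/kg and vehicle (1570 with an unadjusted p within 0.05) and 1 between 200 and 100 mg/kg.

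Reg1a kept its direction in 20 alternatives (3.09 to 3.49) and passed in 10. Slc25a42 (−2.48 to −1.48) passed in 8, Cyp26b1 (−2.14 to −1.38) in 6 and 1393535_at (1.16 to 1.70) in 5 of 19. The sign turned for Abcc2, at −0.39 without 200 mg/kg rat 2 and 1.67 without rat 1, and for Mpeg1 against vehicle, at 0.018 with array weights and 0.048 to −0.33 without 1 array. The cause was not tested. Cyp1a1 lay between −3.30 and −1.51 and passed in none of the alternatives run. It had no value without 200 mg/kg rat 1 or in the methods' t-test.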

Other observations

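The clock genes, whose transcripts cycle over the day, gave a mixed picture at 200 mg/kg, with 3 of 18 apart above vehicle and 3 apart below. Nr1d1, a repressor of the clock, stood at 8.59, 8.39 and 8.43 in vehicle rats and at 7.99 and 7.94 at 200 mg/kg, a difference of −0.50. Nfil3, another repressor, differed by −0.91, Usp2, a deubiquitinase gene under clock control, by 0.87 and Cry1, a core clock repressor, by 0.63, and none of these passed in limma. Among 11 genes of crypt base and stem cells 10 lay below vehicle but 0 apart below, where 14.5% of all genes did. Their median of −0.27 was −0.046 without 200 mg/kg rat 2, −0.13 without vehicle rat 3 and −0.41 without vehicle rat 1. The member above vehicle, Lgr4, a receptor for R-spondins, stood at 7.36, 6.72 and 5.41 in vehicle rats and at 7.69 and 7.71 at 200 mg/kg.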
